A study of Mus musculus with 10 samples.

Results

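Regulatory T cells (Tregs) that lack Vps34 were compared between lung and spleen, to describe which differences in chromatin accessibility exist between these tissues when this kinase is missing. The comparison takes the 6 Vps34-deficient libraries of 10 in all, 2 from lung and 4 from spleen, and every peak of the count table. Accessibility was measured by ATAC-seq, in which the Tn5 transposase inserts adaptors into open DNA. All libraries came from mice 10 days old whose Tregs were sorted as CD4+, TCRb+ and positive for Foxp3-YFP, the reporter that comes with Foxp3-Cre. Vps34-deficient mice were Foxp3Cre Pik3c3 fl/fl, in which the Cre recombinase made by Foxp3-expressing cells removes floxed Pik3c3, the gene of Vps34. Control mice, with 2 lung and 2 spleen libraries used here for comparison, were Foxp3Cre with Pik3c3 +/+ or +/fl, so they carried the Cre too and may have had a single intact copy. The labels do not say that libraries are from separate animals or whether animals were pooled, so the p-values measure the spread between these libraries. Per the study's methods, lung was cut and digested with enzymes whereas spleen was ground, so tissue and dissociation cannot be told apart.

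Vps34 is the class III phosphatidylinositol 3-kinase, which makes the lipid that recruits effectors to endosomes and forming autophagosomes, and so serves autophagy and vesicle traffic. Tregs depend on Foxp3 and restrain other immune cells. Those in lymphoid organs include resting cells that circulate through lymph nodes by means of Ccr7, while those in tissues tend to have an effector programme with factors such as Gata3, Rora and Pparg and receptors such as the Il1rl1 product ST2. Open chromatin marks promoters and distal regulatory regions where transcription factors bind. In bulk libraries a lower peak cannot tell apart fewer cells that have the site open and less opening in each cell.

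The sequences of the 3 peaks with the smallest p-values in each direction among those with separate libraries, 1 per nearest gene, are shown because the ranked results below begin with them. Each is the central 200 bases, read from the GRCm38 plus strand and written 5′ to 3′. The positions are chr1:184066116-184066315 near Dusp10, chr11:99143017-99143216 near Ccr7 and chr9:103708723-103708922 near Tmem108 for peaks higher in lung, then chr12:92530155-92530354 (nearest gene Sel1l), chr1:80855312-80855511 near Dock10 and chr14:13895429-13895628 near Gm281 for peaks lower in lung. Capitals mark matches on either strand to the AP-1 letters TGANTCA, the NFAT letters TGGAAA, the letters AGATAA read by GATA factors, the NR4A letters AAAGGTCA, the RUNX letters TGTGGTT or the ETS letters CAGGAAGT. A match is a description of the letters and does not show a bound site.
Dusp10: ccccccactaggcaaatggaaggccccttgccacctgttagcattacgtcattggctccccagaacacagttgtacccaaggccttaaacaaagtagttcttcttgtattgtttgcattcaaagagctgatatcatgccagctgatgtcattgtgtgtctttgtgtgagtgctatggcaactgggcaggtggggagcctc
Ccr7: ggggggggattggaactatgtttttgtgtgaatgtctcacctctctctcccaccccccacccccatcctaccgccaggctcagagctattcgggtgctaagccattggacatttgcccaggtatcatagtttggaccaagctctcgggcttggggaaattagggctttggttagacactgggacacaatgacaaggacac
Tmem108: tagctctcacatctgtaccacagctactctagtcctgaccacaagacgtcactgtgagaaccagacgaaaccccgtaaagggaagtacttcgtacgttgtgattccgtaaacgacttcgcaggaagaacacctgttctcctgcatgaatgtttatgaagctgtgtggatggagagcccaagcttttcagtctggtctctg
Sel1l: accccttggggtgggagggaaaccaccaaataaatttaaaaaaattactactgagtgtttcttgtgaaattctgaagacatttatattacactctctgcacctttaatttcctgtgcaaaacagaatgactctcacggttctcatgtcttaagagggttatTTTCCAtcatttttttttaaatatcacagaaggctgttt
Dock10: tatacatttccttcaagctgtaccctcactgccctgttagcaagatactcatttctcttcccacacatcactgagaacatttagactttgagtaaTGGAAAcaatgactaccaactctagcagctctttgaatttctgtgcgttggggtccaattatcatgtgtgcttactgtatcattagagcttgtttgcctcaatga
Gm281: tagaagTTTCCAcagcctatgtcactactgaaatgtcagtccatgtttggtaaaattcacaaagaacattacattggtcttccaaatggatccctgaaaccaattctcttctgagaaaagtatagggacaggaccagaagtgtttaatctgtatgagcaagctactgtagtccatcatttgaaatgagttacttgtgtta
None of the 6 sets of letters was found in the 3 higher windows, and each of the 3 lower windows held 1 match, in every case to the NFAT letters.

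The 6 libraries held 9448418 to 22157725 counts in peaks, and their median count per peak ran from 32 to 72. Counts were scaled to library totals and TMM factors and are given as CPM. Replicates correlated at r = 0.928 to 0.962 across peaks and libraries of different tissues at 0.857 to 0.894, as a description, since peaks are not independent. On the first principal component, which held 53.4% of the variance, both lung libraries lay apart from all 4 spleen libraries. The second, with 16.1%, set the 2 lung libraries apart from each other. In simulated data with the same depths, this comparison called 36% of 200 peaks changed 2-fold and 75% of 200 peaks changed 4-fold. Only those 200 of 97109 simulated peaks were changed, so the adjusted p was harder to pass there than in the real data. These shares therefore do not measure what the real comparison resolves. The labelled cell type was checked at promoters of Treg and CD4 T cell identity genes. All 8 had a promoter peak, 1 of their 13 promoter peaks was called, lower in lung at Ikzf2, and the summed level of the 13 was 272 to 318 CPM in lung and 302 to 367 CPM in spleen. Summed promoter levels of B cell, myeloid, lung epithelium, endothelium, fibroblast, and CD8 and NK cell markers overlapped between the tissues. Within those 6 lists 1 promoter peak was called, at Cdh5, the endothelial cadherin. In the genes and 10 kb around them, endothelial markers had 10 higher and 1 lower of 60 peaks (16.7% higher, beside 12.5% higher and 4.72% lower of all tested peaks), and 2 and 0 of 40 among peaks wider than 250 bp fitted alone. Of the 10, Erg had 4, Cdh5 2 and Tek 2, and controls had 7 higher and 2 lower. Counts of higher and lower peaks were 5 and 1 of 44 for B cell, 1 and 0 of 31 for myeloid, 3 and 1 of 26 for lung epithelium, 0 and 1 of 24 for fibroblast, 4 and 1 of 31 for CD8 and NK cell and 5 and 10 of 114 for Treg and CD4 identity genes. Promoters of group 2 innate and Th2 genes summed to 71.2 to 82.1 CPM in lung and 93.1 to 98.6 CPM in spleen, with 0 of 4 peaks called. Counts in these marker lists moved when single libraries were left out. The part of other cells in the results was not tested.

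Without Vps34, lung and spleen Tregs differed at many loci in both directions. Among peaks with separate libraries the smallest p-values lay near Dusp10 and Ccr7, higher in lung, and at intergenic peaks with Sel1l and Dock10 as nearest genes, lower in lung. A peak was called where edgeR's quasi-likelihood test gave a Benjamini-Hochberg adjusted p below 0.05 and the absolute log2 fold change was above 0.5. Of 97109 tested peaks, 12095 (12.5%) were higher in lung and 4583 (4.72%) were lower, with median log2 fold changes of 1.44 and -1.08. Across all tested peaks both lung libraries lay above all 4 spleen libraries at 22.4% and below them at 18.4%. Among called peaks the libraries were separate at 98.8% of the higher and 99.2% of the lower ones. Without lung replicate 1, 8042 peaks were higher and 2624 lower, and without lung replicate 2, 6995 and 2117, in fits that assume the single lung library to vary like the other groups.

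Most of the higher calls were narrow peaks, a split chosen after seeing the data. Of 28889 peaks of 250 bp or less, 9834 (34.0%) were higher and 460 (1.59%) lower, and these narrow peaks made up 81.3% of all higher calls. Strong narrow peaks moved by similar amounts. Among 1259 narrow peaks with a mean of at least 10 CPM, 94.8% were called higher, and the middle 50% of the log2 fold changes ran from 1.17 to 1.37. Their median level relative to the spleen mean was 2.29 and 2.50 in the lung libraries and 1.12, 1.01, 0.747 and 1.12 in the spleen libraries. Control lung libraries were at 2.19 and 1.30 and control spleen libraries at 0.566 and 0.776, so libraries of one group differed at these peaks too. Narrow peaks held 14.3% and 15.4% of the counts of the lung libraries, against 8.39%, 7.74%, 6.60% and 8.36% of the spleen libraries. What makes narrow peaks move together was not tested, and each narrow peak named here is called narrow.

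**Figure D1:**
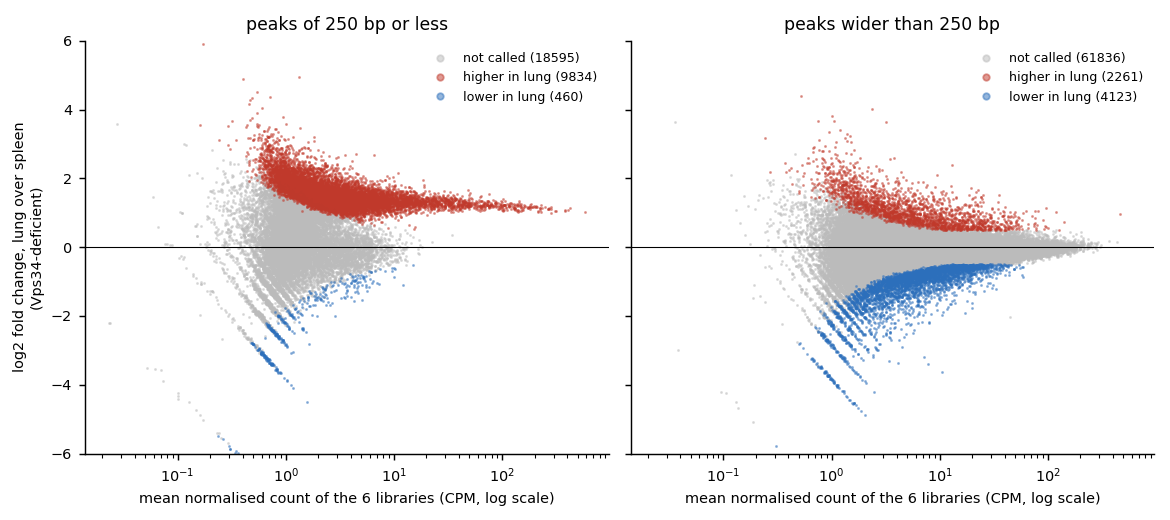
Log2 fold change of lung over spleen in Vps34-deficient Tregs (vertical axis) against the mean normalised count of the 6 libraries (CPM, log scale), for peaks of 250 bp or less (left) and wider peaks (right). Each point is a tested peak, coloured where called, and 120 peaks beyond the vertical range are not drawn. Strong narrow peaks form a band above 1, with 9834 called higher and 460 lower, whereas wide peaks spread to both sides of 0, with 2261 higher and 4123 lower.

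Wide peaks gave a more even split. In the fit of all peaks, 2261 of 68220 (3.31%) were higher and 4123 (6.04%) lower. When the wide peaks were fitted and scaled alone, which raised the log2 fold changes by 0.11, 2734 (4.01%) were higher and 2173 (3.19%) lower. All 2173 of those lower peaks and 2244 of the higher ones had been called in the fit of all peaks. The share of higher among called peaks was 55.7% in this fit and 72.5% in the fit of all peaks. This fit changed both the set of peaks and the scaling, so their parts in the lower number of lower calls cannot be told apart. All 20 peaks ranked by p-value below were wide, and all 20 were called in the same direction in the fit of wide peaks alone.

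Among the 10 ranked peaks higher in lung, the first lay in an intron of Dusp10, a phosphatase that switches off the p38 and JNK kinases (chr1:184065951-184066482). It had 66.9 and 57.9 CPM in lung and 19.04, 22.5, 24.2 and 21.8 CPM in spleen. Both lung libraries lay far above all spleen libraries. The log2 fold change was 1.51 (SE 0.111), and edgeR's quasi-likelihood test gave an adjusted p of 8.27e-08. Control lung libraries had 37.3 and 37.8 CPM and control spleen libraries 17.2 and 18.7 CPM.

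The second ranked peak lay beyond the 3′ end of Ccr7, the chemokine receptor that guides T cells into lymph nodes (chr11:99142577-99143658, intergenic). Lung had 28.7 and 27.3 CPM, and spleen had 5.17, 4.30, 5.21 and 6.88 CPM, so the lung libraries nearly coincided and stood clear of all spleen libraries. The log2 fold change was 2.38 (SE 0.180), and the adjusted p was 8.27e-08. Of 24 tested peaks with Ccr7 as nearest gene, 7 were higher in lung and 0 lower, beside 12.5% and 4.72% of all peaks. They lay on both sides of the gene. The neighbour of the second ranked peak (chr11:99142115-99142388) had 6.155 and 6.43 CPM in lung and 0.414, 0.485, 0.347 and 0.284 CPM in spleen (log2 fold change 4.01, SE 0.380). It was weak in every spleen library. Upstream, a peak at chr11:99168054-99168524 had 39.6 and 32.4 CPM in lung and 12.1, 14.5, 14.1 and 19.4 CPM in spleen (log2 fold change 1.26, SE 0.164). The other 4 calls had log2 fold changes of 0.53 to 1.39. The last of them, of which the value was 0.96, had an adjusted p of 0.0453, and the peak with 1.39 was narrow. At the Ccr7 promoter itself lung had 59.4 and 39.2 CPM and spleen 34.8, 39.2, 36.95 and 47.8 CPM. These values overlapped, and the peak was not called (log2 fold change 0.32, adjusted p = 0.123).

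**Figure D2:**
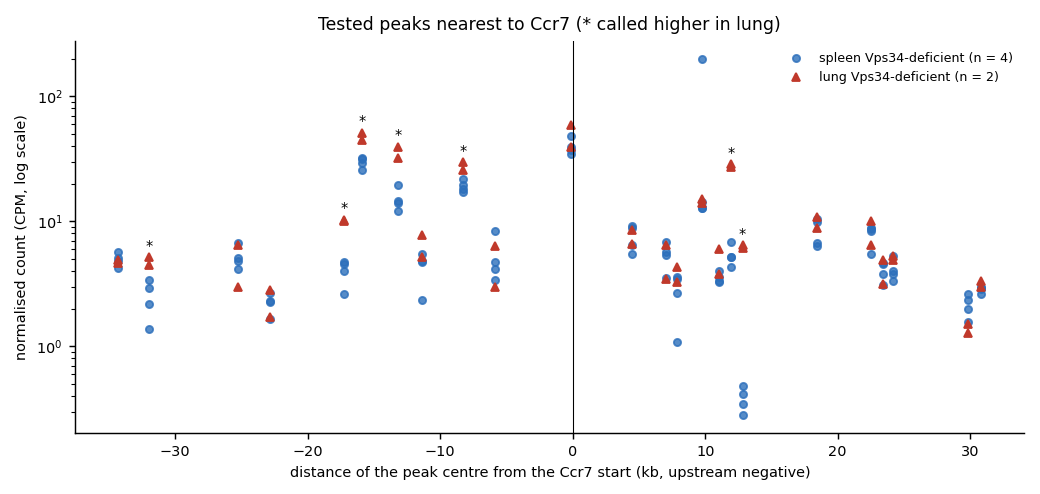
Normalised count in CPM (log scale) of each tested peak with Ccr7 as nearest gene, against the distance of its centre from the gene's start in kb, with upstream negative. Triangles are the 2 lung and circles the 4 spleen Vps34-deficient libraries, and stars mark the 7 peaks called higher in lung. At the start itself lung and spleen overlap, while at the second ranked peak lung lies at 27.3 to 28.7 CPM and spleen at 4.30 to 6.88 CPM.

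The strongest Ccr7 peak by mean count spanned a coding exon (chr11:99144499-99146085), and 1 library decided its value. Spleen replicate 4 had 200.7 CPM there, whereas the other spleen libraries had 14.2, 12.7 and 12.7 CPM and the lung libraries 14.97 and 13.9 CPM. The difference there, -2.04 on the log2 scale, did not pass the test, and without that library it was 0.13.

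The other 8 ranked higher peaks lay in or near Tmem108, Bri3, Zeb1, Mbnl1, Tmem64, Gprc5a, Tctex1d1 and Dnm3, with log2 fold changes of 0.90 to 1.67 and adjusted p of at most 6.11e-07. The Tmem108 peak (intron, chr9:103708418-103709228) had 40.8 and 42.5 CPM in lung and 11.3, 14.5, 12.9 and 13.5 CPM in spleen. A peak in an intron of Zeb1, a zinc finger repressor, lay 78 bp from an annotated start and had 102.3 and 91.4 CPM in lung and 42.6, 47.8, 47.6 and 47.5 CPM in spleen. At an intronic peak of Mbnl1, a regulator of splicing, lung had 62.2 and 52.5 CPM and spleen 22.01, 21.6, 24.4 and 24.97 CPM. In all 3 the lung libraries lay well above the spleen libraries, whose own values were close. The promoter peak of Gprc5a, a receptor induced by retinoic acid, had 102.2 and 102.5 CPM in lung and 57.95, 51.4, 53.1 and 57.5 CPM in spleen. Its log2 fold change of 0.90 (SE 0.0801) was the smallest of the 10.

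The first ranked lower peak was intergenic, with Sel1l, an adaptor of protein degradation at the endoplasmic reticulum, as nearest gene, 680.8 kb away (chr12:92529928-92530583). Lung had 0.832 and 1.29 CPM and spleen 14.0, 9.70, 11.2 and 9.51 CPM. The site was thus nearly closed in both lung libraries and open in all 4 spleen libraries (log2 fold change -3.41, SE 0.304, adjusted p = 5.70e-07). The second, intergenic and 96.65 kb from Dock10, whose product activates Cdc42 and Rac, had 0.998 and 1.501 CPM in lung and 19.9, 11.8, 10.9 and 18.6 CPM in spleen (chr1:80855097-80855727, log2 fold change -3.62, SE 0.341). Spleen libraries differed from each other here, but none came near the lung values. An intronic peak of Gm281 (chr14:13895106-13895952) had 1.497 and 0.643 CPM in lung and 11.9, 9.94, 8.60 and 10.4 CPM in spleen (log2 fold change -3.18, SE 0.306).

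The remaining 7 ranked lower peaks had log2 fold changes of -3.37 to -1.09 and adjusted p of at most 8.27e-06. Near Casr, the calcium-sensing receptor, lung had 9.15 and 7.51 CPM and spleen 30.1, 24.7, 22.1 and 26.95 CPM. In an intron of Tbc1d4, a Rab GTPase-activating protein that controls the traffic of glucose transporters, lung had 19.5 and 15.7 CPM and spleen 39.6, 37.9, 37.3 and 35.6 CPM. Near Vgll4, a cofactor that opposes YAP at TEAD factors, lung had 0.499 and 0.643 CPM and spleen 7.73, 4.97, 4.52 and 6.53 CPM. The Casr and Tbc1d4 sites were lowered but still open in lung, whereas the Vgll4 site was near closed. The peaks of Tmem192 (-1.76), Pom121l12 (-1.201), Srfbp1 (-2.89) and Qpct (log2 fold change -1.30, SE 0.153) completed the group. All 20 ranked peaks were also called in the same direction between lung and spleen controls.

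**Figure D3:**
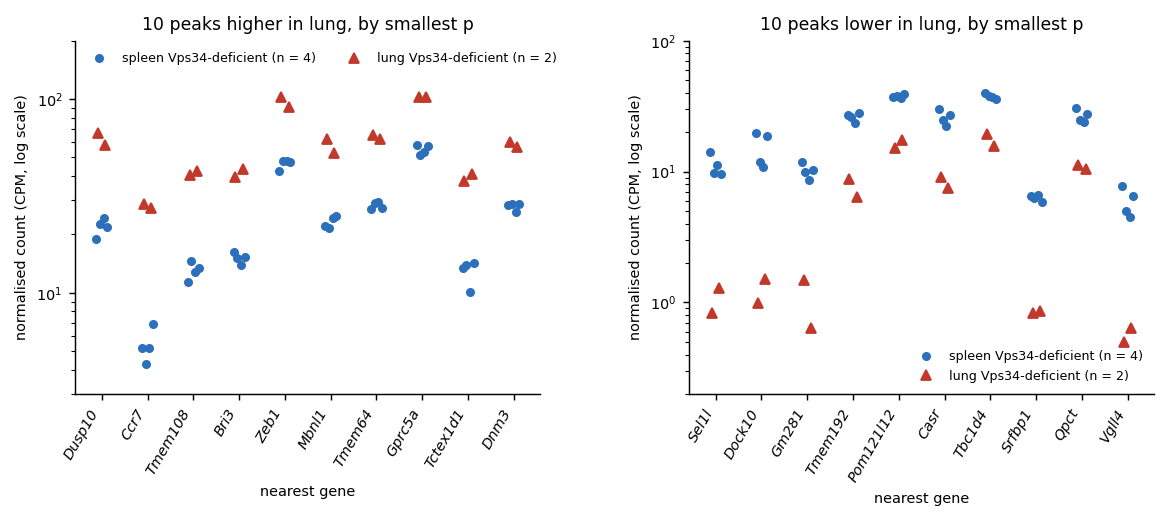
Normalised count in CPM (log scale) at the 10 peaks higher in lung (left) and the 10 lower in lung (right) with the smallest p-values and separate libraries, named by nearest gene. Triangles are the 2 lung and circles the 4 spleen Vps34-deficient libraries. In every peak the triangles lie on one side of all circles, for example at 27.3 to 28.7 against 4.30 to 6.88 CPM at Ccr7.

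The genes with the most called peaks were ranked in each direction. Those with the most higher peaks spanned 946 to 2961 kb. In order they were Fgfr2 (22 of 174 peaks), Pde4d (15 of 83), Lsamp (14 of 25), Csmd1 (13 of 16), Thsd7b (11 of 25), Rbfox1 (10 of 20), Opcml (10 of 13) and Dlg2 (10 of 31), beside 12.5% of all peaks. The share in Fgfr2 was close to that background, and the median log2 fold change of its peaks was -0.10. Several of them, such as Lsamp and Opcml, which encode neuronal adhesion molecules, and Rbfox1, a splicing factor of neurons and muscle, are known mostly from other tissues. The best peak of each was narrow, at 210 to 217 bp. With GC offsets 6 of these 8 calls were kept, the Fgfr2 peak turned to -0.16 and the Thsd7b peak (0.27) was not called. The annotated model of Fgfr2 spans 2961 kb with neighbours inside it, such as Chst15, and it also held 16 lower peaks. At the best Lsamp peak (chr16:41568186-41568401) lung had 85.2 and 92.0 CPM and spleen 34.8, 35.8, 23.5 and 37.5 CPM, with lung above (log2 fold change 1.44, SE 0.149, adjusted p = 2.94e-06).

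Besides Fgfr2, the genes with the most lower peaks spanned 91.4 to 599 kb. They were Foxp1, a forkhead factor that keeps T cells quiescent (12 of 103 peaks), Zmiz1 (8 of 50), Tnik (8 of 26), the semaphorin gene Sema4d (7 of 29), the protease gene Adam19 (7 of 25), Ncoa7 (7 of 20) and Lpp (7 of 61), beside 4.72% of all peaks. Each best peak was wide. In Sema4d (chr13:51711961-51712461) lung had 1.66 and 1.07 CPM and spleen 8.003, 8.73, 6.60 and 8.09 CPM, so both lung libraries were low. The log2 fold change was -2.48 (SE 0.297, adjusted p = 8.395e-06). In the best lower peak of Foxp1 (chr6:99432638-99433576) lung had 14.6 and 9.65 CPM and spleen 22.6, 22.2, 25.1 and 23.8 CPM (log2 fold change -0.94, SE 0.169). Foxp1 also held 5 higher peaks. One of them (chr6:99171799-99172805) had 63.9 and 49.1 CPM in lung and 32.8, 33.9, 34.7 and 39.3 CPM in spleen, so this gene changed in both directions. The calls at Tnik and Ncoa7 were lost without lung replicate 1, with log2 fold changes of -0.72 and -0.77.

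The genes that the study names were read in the gene and within 10 kb. At Tigit, an inhibitory receptor of effector Tregs, the promoter peak (chr16:43663949-43664666) had 62.9 and 73.6 CPM in lung and 38.9, 36.7, 33.7 and 40.3 CPM in spleen. The tissues were separate (log2 fold change 0.87, SE 0.105, adjusted p = 8.79e-06), and controls had 82.6 and 97.7 CPM in lung and 46.7 and 56.2 CPM in spleen. Over all 11 genes named by the study, 11 of 101 peaks were higher and 2 lower in Vps34-deficient lung, beside 12.5% and 4.72% of all peaks, and in fits without 1 library 7 to 13 were higher and 1 to 6 lower. In controls 23 of 101 were higher, beside 11.8% of all peaks, but 6 without spleen control replicate 1, 12 without spleen control replicate 2 and 11 without lung control replicate 2. Klrg1, a receptor of terminally differentiated effector cells, had 0 of 8 peaks called, against 5 of 8 higher in controls. Il1rl1 had 1 of 9 higher, a narrow peak, against 5 of 9 in controls, and Pparg 1 of 7 against 3 of 7. The counts of 1 in Il1rl1 and Pparg are near the share of all peaks.

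At the strongest Klrg1 peak (chr6:122291726-122292160) lung had 24.6 and 21.7 CPM and spleen 17.4, 18.8, 15.8 and 20.4 CPM (log2 fold change 0.36, SE 0.147, adjusted p = 0.0915, or -0.42 with GC offsets). The interaction of tissue and genotype there was -0.15 (adjusted p = 0.924), so no difference between genotypes was shown at this peak. Of the 101 peaks 13 had an unadjusted interaction p below 0.05, 12 of them with the smaller lung-over-spleen value in Vps34-deficient cells, beside 7060 of all 97109 peaks at that threshold, and 0 were called. Il10, the gene of a suppressive cytokine, had 1 of 4 peaks lower, whereas in controls 2 of 4 were higher. At its lower peak (chr1:131010466-131010960) lung had 6.82 and 8.15 CPM and spleen 10.8, 12.6, 9.99 and 11.1 CPM, and both lung values were below all spleen values. The log2 fold change was -0.57 in Vps34-deficient cells and 0.41 in controls. The interaction did not pass the test (adjusted p = 0.408).

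Foxp3, Icos and Tcf7, a factor of resting T cells, had 0 of 12, 0 of 7 and 0 of 11 peaks called. The strongest Foxp3 peak lay near the 5′ end of the annotated gene, at an annotated start of its neighbour Ppp1r3f (chrX:7574044-7575048), and had 57.7 and 48.5 CPM in lung and 51.05, 58.5, 62.01 and 63.1 CPM in spleen, with overlapping values. Cd44, an adhesion receptor of activated cells, had 3 of 20 higher and 1 lower, beside 12.5% and 4.72% of all peaks. The promoter peak of Pik3c3, the targeted gene, had 56.4 and 62.6 CPM in lung and 66.8, 65.2, 61.05 and 63.6 CPM in spleen (log2 fold change -0.11, adjusted p = 0.445). Accessibility at the promoter does not measure the deletion. Of 6 Pik3c3 peaks 2 were higher, and the better of them was narrow, with at most 20 counts in a lung library.

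Genes of 14 groups were then taken by role, each with the peaks in the gene or within 10 kb. Between 2.80% and 12.3% of a group's peaks were higher and between 0% and 8.87% lower, beside 12.5% and 4.72% of all peaks. The 12.5% comes mostly from narrow peaks, whereas the groups hold mostly wide ones. In the fit of wide peaks 4.01% of all peaks were higher and 3.19% lower. Beside these shares some groups had more higher calls, such as the AP-1 family with 6 of 52. Others had fewer, such as hypoxia and glycolysis genes with 1 of 90. Counts depended on single libraries in every group, so the lowest and highest count over the 10 fits without 1 library follows in brackets. In Vps34-deficient cells most of the lowest counts came without lung replicate 1 or 2. In controls the fewest or equal fewest higher calls came without spleen control replicate 1, except for the AP-1 family, where leaving out spleen control replicate 2 gave fewer. The most lower calls in controls often came without lung control replicate 2.

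The first group holds transcription factors of effector and tissue Tregs. Of 232 peaks 16 [8 to 19] were higher and 11 [5 to 18] lower (median log2 fold change -0.12, against -0.03 for all peaks), with 10 of the 16 higher ones narrow. In the fit of wide peaks 8 were higher and 6 lower of 176. More lower than higher peaks were called with scaling by library size (15 higher, 18 lower) or with GC offsets (13 and 22), so the group had no stable direction. Controls had 34 [14 to 34] higher and 1 [0 to 6] lower (median 0.12). Leaving out spleen control replicate 1 gave 14 and 1 there, and lung control replicate 2 gave 19 and 6.

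Bhlhe40, a helix-loop-helix factor that sustains T cell activation, had a peak (chr6:108665489-108665918) at 26.0 and 21.2 CPM in lung and 8.55, 7.76, 7.21 and 7.80 CPM in spleen. Lung was about equally high in both libraries (log2 fold change 1.60, SE 0.179, adjusted p = 6.07e-06). Rora, a nuclear receptor of tissue lymphocytes, had 9 of 53 peaks higher and 2 lower, against 21 and 0 in controls. Its best peak (chr9:69313725-69314178) had 12.1 and 9.22 CPM in lung and 3.79, 6.18, 3.82 and 4.26 CPM in spleen (log2 fold change 1.25, SE 0.234). Ikzf2, which encodes the Treg factor Helios, went the other way with 2 higher and 5 lower of 51. At its best lower peak (chr1:69617978-69618228) each lung library had 2 counts while spleen had 1.52, 1.88, 2.08 and 1.70 CPM. Against a floor of 3 counts per library, lung was at least 6.29-fold lower. The fourth, Ikzf3, had a narrow peak with a log2 fold change of 1.10.

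Among Treg receptors and suppressive effectors 11 [7 to 15] peaks were higher and 11 [4 to 13] lower of 175 (median -0.03). The wide fit gave 10 higher and 3 lower of 155, and controls had 33 [5 to 31] and 3 [2 to 12] of 175. The control count was 5 and 2 without spleen control replicate 1 and 11 and 12 without lung control replicate 2, so the contrast with controls rested on single libraries. A peak in an untranslated exon at the 5′ end of the annotated gene of Ctla4, the receptor that strips costimulatory ligands (chr1:60886583-60887485), had 28.1 and 24.4 CPM in lung and 12.004, 13.2, 15.9 and 15.0 CPM in spleen, with lung above (log2 fold change 0.90, SE 0.155). Nt5e, which encodes the adenosine-making enzyme CD73, fell in lung at an intronic peak (chr9:88332352-88332955), with 16.97 and 13.9 CPM against 32.8, 27.03, 29.9 and 28.5 CPM in spleen. Its log2 fold change was -0.93 (SE 0.138, adjusted p = 5.34e-05) in Vps34-deficient cells and -0.31 (adjusted p = 0.160) in controls, and the interaction did not pass the test (adjusted p = 0.455). Tigit is given above, and Entpd1, the gene of CD39, had a narrow peak at 1.79.

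Receptors that place T cells in tissues gave 9 [6 to 10] higher and 14 [7 to 19] lower of 222 peaks, and 5 and 9 of 175 in the wide fit, with 15 [2 to 16] and 10 [3 to 12] in controls. Gpr183, the receptor for oxysterols that positions cells in follicles and tissues, had 3 of 12 lower. At its best peak (chr14:121963378-121964026) lung had 5.99 and 6.22 CPM and spleen 13.7, 12.8, 15.5 and 14.04 CPM. All spleen libraries were more open (log2 fold change -1.203, SE 0.189, adjusted p = 9.94e-05). The peaks of Itga1 (1.23), Cxcr5 (1.201) and Cd44 (1.26), all higher, were narrow.

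Genes of resting and lymphoid homing T cells gave 16 [12 to 22] higher and 28 [4 to 37] lower of 398 peaks, but 18 higher and 11 lower of 319 in the wide fit and 17 and 4 without lung replicate 2, so their balance changed with the peaks fitted and with 1 library. Controls had 17 [4 to 17] and 24 [9 to 36]. Ccr7 and Foxp1 are given above. Il7r, the interleukin-7 receptor of long-lived T cells, had 46.2 and 39.2 CPM in lung and 24.6, 29.9, 28.3 and 29.6 CPM in spleen at an intronic peak (chr15:9527933-9528721, log2 fold change 0.61, SE 0.112). Both lung libraries lay above all 4 spleen libraries there. The Il7r call was lost without spleen replicate 1 (0.49) and with GC offsets (0.21). Bcl2, which blocks apoptosis, had 0 higher and 4 lower of 40, and Bach2, a repressor that maintains resting cells, 1 higher and 4 lower of 71.

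**Figure D4:**
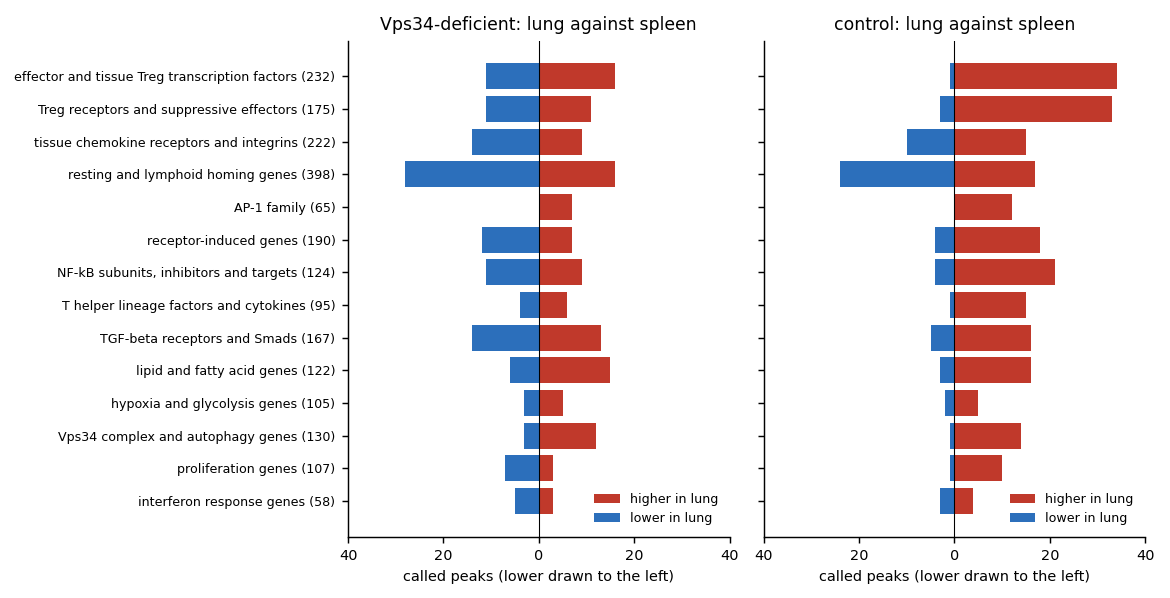
Number of called peaks in the gene or within 10 kb for each of 14 gene groups, with lower peaks drawn to the left and higher peaks to the right, for lung against spleen in Vps34-deficient (left) and control cells (right). Numbers of tested peaks stand in parentheses. Effector and tissue Treg transcription factors had 16 higher and 11 lower in Vps34-deficient cells and 34 and 1 in controls.

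Targets of T cell receptor signalling were read in 3 groups. The AP-1 family, which pairs Fos and Jun proteins, had 7 [5 to 11] higher and 0 [0 to 1] lower of 65 peaks, and 6 and 0 of 52 in the wide fit, with 12 [7 to 12] and 0 [0 to 2] in controls. Of the 7, Fosl2 had 4. Its best peak (chr5:32132870-32133905) had 38.3 and 30.2 CPM in lung and 11.5, 15.9, 15.9 and 15.9 CPM in spleen. Lung was higher in both libraries (log2 fold change 1.21, SE 0.154, adjusted p = 1.31e-05). The best Fos peak (1.05) and Atf3 peak were narrow, and the Atf3 call (0.80, adjusted p = 0.0473) was lost in 6 of the 10 fits without 1 library, among them those without lung replicate 1 (0.70) or 2 (0.98), and with another scaling, filter or tool.

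Genes induced by the receptor had 7 [6 to 11] higher and 12 [2 to 16] lower of 190, but 7 and 4 of 158 in the wide fit, and 18 [6 to 19] and 4 [1 to 17] in controls. In an intron of Tox, a factor of chronic stimulation (chr4:6970369-6970958), lung had 46.9 and 61.3 CPM and spleen 24.4, 28.9, 26.7 and 27.7 CPM (log2 fold change 1.004, SE 0.115, adjusted p = 6.64e-06). Near Cd83 (chr13:43805321-43805905) lung had 2.83 and 2.36 CPM and spleen 0.552, 0.667, 0.434 and 0.142 CPM (log2 fold change 2.50, SE 0.493). Lung was higher at both, the second at low counts. Dusp4, a phosphatase of ERK kinases, had 3 of 13 lower. Its best peak was at -0.64, or -0.41 and not called without lung replicate 2. Nfatc1 had a narrow peak at 1.39.

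NF-kB genes had 9 [5 to 11] higher and 11 [2 to 14] lower of 124 peaks (5 and 3 of 103 in the wide fit) and 21 [9 to 19] and 4 [1 to 8] in controls. Without lung replicate 1 the counts were 5 and 4, and without lung replicate 2 they were 6 and 2. Nfkb1, which encodes the p50 subunit, had 1 higher and 5 lower of 32, against 8 and 1 in controls. Nfkbiz, which encodes an atypical inhibitor, had 2.16 and 1.93 CPM in lung and 4.55, 4.85, 5.34 and 6.10 CPM in spleen at a peak upstream of the gene (log2 fold change -1.34, SE 0.303). The calls at this peak and at the best Nfkb1 peak, which was narrow, were lost without lung replicate 2 (-1.21 and -0.88). Peaks at Tnfaip3 (3.07), the gene of the inhibitor A20, and Nfkbib (1.25) were narrow.

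T helper factors and cytokines had 6 [3 to 6] higher and 4 [1 to 7] lower of 95 peaks, with no narrow peak among the higher ones, and 15 [2 to 14] and 1 [0 to 5] in controls. The control count was 2 and 0 without spleen control replicate 1, 4 and 1 without spleen control replicate 2 and 3 and 5 without lung control replicate 2. With scaling by library size 5 were higher and 6 lower. Stat4, the signal transducer of interleukin-12, had 16.97 and 20.2 CPM in lung and 6.62, 6.55, 6.69 and 8.65 CPM in spleen at an intronic peak (chr1:52055819-52056372, log2 fold change 1.38, SE 0.187, adjusted p = 2.27e-05). Tbx21, which encodes T-bet, had 8.65 and 8.79 CPM in lung and 5.24, 4.61, 3.91 and 3.69 CPM in spleen at a promoter peak (log2 fold change 1.002, SE 0.222). Both lung libraries were above all spleen libraries at each.

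Near Il17a, the gene of interleukin-17A (chr1:20743771-20744345), the lung libraries had 5.32 and 16.7 CPM and the spleen libraries 4.97, 4.36, 2.78 and 4.26 CPM. Lung replicate 1 lay just above spleen. The call (log2 fold change 1.42, adjusted p = 0.00106) was lost without lung replicate 2, with 0.46. Controls had 42.3 and 51.6 CPM in lung and 19.05 and 19.6 CPM in spleen at this peak. Near Bcl6, the factor of follicular cells, a peak at 1.18 was not called without lung replicate 1 (1.11).

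TGF-beta receptors and Smads gave 13 [5 to 15] higher and 14 [2 to 18] lower of 167 peaks, and 10 and 4 of 135 in the wide fit. With lung replicate 1 left out they were 5 and 6, and with lung replicate 2 left out 11 and 2. An intronic peak of Smad4, the shared Smad (chr18:73642976-73643525), had 17.97 and 17.8 CPM in lung and 9.38, 8.73, 10.6 and 12.3 CPM in spleen. The log2 fold change was 0.80 (SE 0.173, adjusted p = 0.00223). Lrrc32, whose product GARP holds latent TGF-beta on Tregs, had 3.83 and 2.57 CPM in lung and 7.59, 6.18, 7.77 and 7.66 CPM in spleen at an upstream peak. It was lower in both lung libraries (-1.17, SE 0.271) and lost its call without lung replicate 2 (-0.88). Smad3 had 4 of 27 lower, with its best at -1.56, in a narrow peak, and the best peak of Tgfbr2 (1.36) was narrow.

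Most higher calls of the metabolic groups were narrow peaks. Lipid and fatty acid genes had 15 [7 to 16] higher and 6 [4 to 9] lower of 122 peaks, 11 of the 15 narrow, and 4 and 2 of 91 in the wide fit. Their first 3, Lpl (1.19), Ppard (1.41) and Ppara (1.83), were narrow. Near Acsl1, which activates fatty acids, a narrow peak had 0 counts in both lung libraries and 0.966, 0.970, 1.35 and 0.993 CPM in spleen, at least 3.74-fold lower in lung. Hypoxia and glycolysis genes had 5 [2 to 5] higher and 3 [0 to 4] lower of 105, but 1 and 2 of 90 in the wide fit. Egln3 (1.60) and Hk1 (1.64) were narrow. The peaks near Hif1a (-1.31), the oxygen-sensitive factor, and Ldha (-0.87) were wide, and both calls were lost without lung replicate 2 (-1.06 and -0.38), that of Hif1a also without lung replicate 1 (-1.53).

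The Vps34 complex and autophagy genes had 12 [5 to 13] higher and 3 [0 to 4] lower of 130 peaks, 7 of the 12 narrow, and 5 and 0 of 100 in the wide fit, with 14 [2 to 15] and 1 [0 to 4] in controls. Ulk1, the kinase that starts autophagy, had 48.7 and 36.5 CPM in lung and 26.5, 25.7, 29.5 and 28.2 CPM in spleen at an intronic peak (chr5:110807900-110808690). Lung was higher, more so in replicate 1 (log2 fold change 0.63, SE 0.128, adjusted p = 0.00121), and without it the value was 0.47 and not called. Atg7, which lipidates LC3, had 5 of 30 higher, and its best peak (1.64) was narrow, as were those of Ambra1 (2.03) and Pik3c3 (2.45).

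Proliferation genes had 3 [3 to 3] higher and 7 [1 to 9] lower of 107 peaks, and 0 and 3 of 91 in the wide fit, while controls had 10 [2 to 10] and 1 [0 to 6] of 107. The control count was 2 and 0 without spleen control replicate 1 and 4 and 6 without lung control replicate 2, so its direction depended on 1 library. Ccnd3, a D-type cyclin, had 7.15 and 5.79 CPM in lung and 12.3, 13.7, 16.1 and 13.4 CPM in spleen in an intron near its start (chr17:47598146-47598539). Both lung libraries were low (log2 fold change -1.10, SE 0.194, adjusted p = 3.45e-04). The peaks of Ccnd2 (-0.97) and Cdk6 (-0.9998) were lower but lost their calls without lung replicate 2, with -0.71 and -0.87. The Cdk6 call was lost without lung replicate 1 too (-1.03). The E2f2 peak (1.84) was narrow. Interferon response genes had 3 [2 to 3] higher and 5 [1 to 6] lower of 58, and 1 and 1 of 47 in the wide fit. An intergenic peak near Ifit1 (chr19:34656457-34656847) had at most 2 counts in a lung library and 2.001, 2.06, 2.17 and 3.26 CPM in spleen, at least 8.31-fold lower in lung. The Mx1 (1.74) and Isg15 (1.57) peaks were narrow.

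Called peaks were rarer at promoters. Within 1 kb of a start 2.96% of 17408 peaks were higher and 2.87% lower, whereas beyond 50 kb 22.3% of 25794 were higher and 5.06% lower. In the fit of wide peaks these shares were 2.06% and 1.13% within 1 kb and 5.62% and 4.84% beyond 50 kb, so distal sites carried more calls in both directions. Base composition moved with the higher calls. In the quintile of peaks with the lowest GC content 25.6% were higher, against 3.59% in that with the highest. With offsets fitted to GC content these shares were 12.04% and 4.54%. Lower calls made up 4.62% and 3.14% of the same quintiles, and 10.6% and 1.52% with the offsets, so they moved with base composition too.

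Short sequence matches in the central 200 bases were more frequent in lower than in higher peaks for several factors. NR4A letters (AAAGGTCA) were in 4.19% of lower, 1.06% of higher and 1.54% of all peaks. ETS letters (CAGGAAGT) were in 7.64% of lower, 2.29% of higher and 6.18% of all. The NFAT letters (TGGAAA) were in 26.5%, 19.9% and 16.5%, and those of AP-1 (TGANTCA) in 14.8%, 8.56% and 9.92%. GATA letters (AGATAA) were in 15.7% of lower, 12.8% of higher and 10.2% of all peaks, and RUNX letters (TGTGGTT) in 8.71%, 6.44% and 8.23%. Within the middle quintile by GC content the NR4A letters were in 4.47% of lower, 1.08% of higher and 1.67% of all peaks. In the same quintile and order ETS letters were in 8.06%, 3.27% and 8.37%, and RUNX letters in 7.86%, 7.62% and 9.80%. GATA letters were in 15.6%, 9.45% and 10.3%, NFAT letters in 26.9%, 18.8% and 17.4%, and AP-1 letters in 14.6%, 9.82% and 11.3%. The RUNX shares of lower and higher peaks thus nearly coincided there. All shares count either strand, NFAT and ETS letters share the bases GGAA, and higher peaks were mostly narrow.

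The same comparison in controls called 11489 peaks higher in lung (11.8%) and 3428 lower (3.53%). Of the peaks higher in Vps34-deficient lung, 7462 were also called in controls, 61.7% of the one list and 64.9% of the other. Among lower peaks 1429 were shared, 31.2% of the Vps34-deficient list and 41.7% of the control list. At peaks higher in Vps34-deficient lung the median log2 fold change was 1.44 there and 1.45 in controls. At the lower peaks it was -1.08 and -0.58. In the fit of wide peaks alone these medians were 1.03 and 0.84 at the higher and -1.14 and -0.72 at the lower peaks. At peaks called higher in controls the medians were 1.61 in controls and 1.23 in Vps34-deficient cells, and at those called lower in controls -1.18 and -0.67. The interaction of tissue and genotype, which tests whether the lung-spleen difference depends on Vps34, called 0 peaks (0%) by edgeR's quasi-likelihood test, with 7060 peaks at an unadjusted p below 0.05, and 35 peaks by the Wald test of DESeq2. Lung control replicate 1 mattered here. Without it 5049 higher control peaks and 21 interaction peaks were called, and 23.4% of the higher peaks were shared. Without spleen control replicate 1, 3124 control peaks were higher and 1616 lower, and 21.001% of the higher and 19.7% of the lower peaks were shared.

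**Figure D5:**
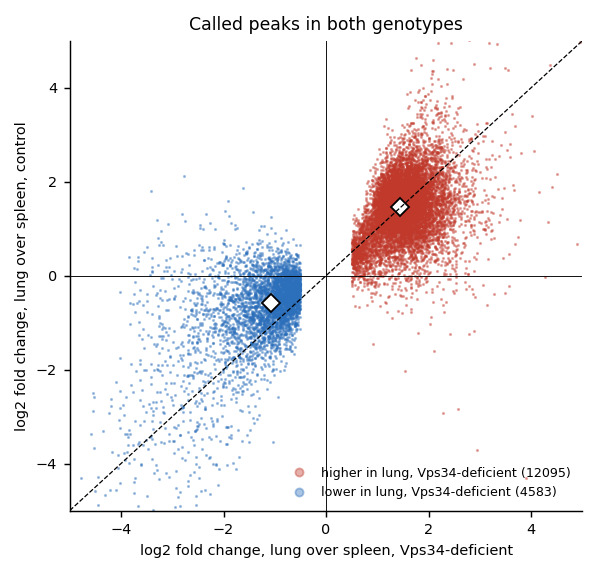
Log2 fold change of lung over spleen in control (vertical axis) against Vps34-deficient cells (horizontal axis) for the 12095 peaks called higher and the 4583 called lower in Vps34-deficient lung. Each point is a peak, values beyond the axes are not drawn, the dashed line marks equal differences and white diamonds mark medians. The higher peaks, most of them narrow, centre on the line, at 1.44 and 1.45, and the lower peaks lie above it, at -1.08 and -0.58. In the fit of wide peaks alone the medians of the higher peaks were 1.03 in Vps34-deficient cells and 0.84 in controls.

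The peaks with the largest falls were read beside markers of red blood cell precursors. Of the 827 peaks with a log2 fold change below -2, 400 had at most 3 counts in each lung library. The GATA letters were in 32.0% of the 827, against 12.1% of the other lower peaks and 10.2% of all. Of 28 peaks at erythroid marker genes, 4 were lower and 0 higher, and in controls 6 and 0, beside 4.72% and 3.53% lower of all peaks. Without lung replicate 2, 2 were lower, and of the 17 with a mean count of at least 50, 0 were lower in either genotype. The peak of Hbb-bt, a beta-globin gene, had 0.333 and 0.429 CPM in lung and 2.897, 2.42, 3.39 and 3.26 CPM in spleen. Slc4a1, which encodes the band 3 anion exchanger of red blood cells and was singled out after its values were seen, had 4 of 5 peaks lower in Vps34-deficient lung and 4 of 5 in control lung. Its peak in an untranslated exon (chr11:102365020-102365447) had 0.499 and 0.214 CPM in lung and 2.48, 3.39, 3.56 and 1.70 CPM in spleen (log2 fold change -2.895, SE 0.649). At these genes spleen signal was low but present in all 4 libraries. The summed promoter level of the erythroid list was 49.4 to 60.05 CPM in lung and 59.5 to 69.2 CPM in spleen. Per the study's methods red blood cells were lysed and the cells were then sorted as Tregs. The part of red blood cell precursors in the lower calls was not tested.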

How the data were processed

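ATAC-seq libraries from sorted Tregs formed 4 groups by tissue and genotype, taken from the labels. The study's text gives 4 control and 2 Vps34-deficient spleen samples, whereas the labels and the column names give 2 and 4, and the labels were followed. Which is right was not tested. The deposited values are raw counts of reads per merged peak and library, not normalised. According to the methods, the authors trimmed and aligned paired reads, removed duplicates, shifted read ends for Tn5, kept nucleosome-free fragments, called peaks per sample with MACS2, kept those found in a set share of a genotype's replicates, and counted with bedtools. The submitters' processing notes name cutadapt 1.9, Picard 1.65 and MACS2 2.1.0.20150603. The methods name an older mouse build, but 51.4% of 21829 gene starts lay in a peak on GRCm38, against 2.67% and 2.79% with starts moved by 100 kb, so GRCm38 and GENCODE vM21 were used. Both mates were counted, since 91.5% to 96.4% of counts were even, so counts overstate independent fragments. Merging sets peak widths, and narrow peaks behaved differently (given with the results).

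In edgeR 4.0.16 (R 4.3.3), filterByExpr left 97109 of 97385 peaks, TMM factors were computed, and quasi-likelihood fits used all 10 libraries, each group with its own mean and the spread estimated jointly (coefficient of variation 17.8%). Calls needed a Benjamini-Hochberg adjusted p below 0.05, two-sided over all peaks, and an absolute log2 fold change above 0.5. CPM values have no prior count added. Replicates differed beyond counting noise (a chi-square of 1.38 to 1.93 per degree of freedom on halved counts), so each library counted once. The lung-spleen test was tested on simulated data for all 97109 peaks, 200 of them changed. At 2-fold 72 were recovered and 9 unchanged peaks called, and at 4-fold 150 and 12. Libraries held 9405823 to 22439699 counts.

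Named peaks were, in each direction, the 10 called with the smallest p and separate libraries, 1 per nearest gene, then the best peaks of the 8 genes with the most called peaks, at most 4 genes per group, and the strongest peaks of genes the study names. The other named Ccr7, Il10, Hbb-bt and Foxp1 peaks and those of Slc4a1, Mpg and Nprl3 were taken after their values were seen. The comparison and all lists were chosen with earlier results of these data known. Results for some genes are not reported here.

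Alternatives were scaling by library size or by median-of-ratios factors, loess offsets against abundance or GC content, the Wald test of DESeq2 1.42.0, other filters and thresholds, halved counts, the 6 libraries alone, a replicate block, a chromosome Y covariate, autosomes alone and each library left out. A further 2 were chosen after seeing the data, a fit of peaks wider than 250 bp and counts thinned to the lowest library total. Footprints and the study's other assays were not analysed here.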

Additional observations from a re-analysis of the deposited data

Results flagged for a closer look

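Among 100 named peaks, the 4 spleen Vps34-deficient libraries were checked for a single value far from the others, which chance alone gives in about 1 of 20 groups. In 10 peaks 1 spleen library stood apart.

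The strongest Ccr7 peak had 200.7 CPM in replicate 4, with the other 3 at 12.7 to 14.2 CPM, and it was the only one of the 10 where leaving that library out reversed the direction of the difference. Replicate 4 also stood high at Stat4 (8.65 CPM, others 6.55 to 6.69), Ifit1 (3.26, others 2.001 to 2.17) and Nfkbib (6.24, others 4.28 to 4.36). Replicate 1 stood low at Zeb1 (42.6 CPM, others 47.5 to 47.8) and Fosl2 (11.5, others 15.88 to 15.89). Replicate 3 stood low at Dnm3 (26.2 CPM, others 28.4 to 28.8) and at the narrow Itga1 peak (53.5, others 78.6 to 80.7), and high at Acsl1 (1.35, others 0.966 to 0.993). Replicate 2 stood low at Lrrc32 (6.18 CPM, others 7.59 to 7.77). The cause was not tested for any of them.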

How the results depend on the processing

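Counts of calls moved with filters, thresholds and libraries. Of 12095 higher and 4583 lower calls, a mean count of at least 50 left 4816 and 1843 (in controls 5267 and 2140), an adjusted p below 0.01 left 6926 and 1794, a log2 threshold of 1 left 2505 lower, and peaks wider than 250 bp alone gave 2734 and 2173 (3724 higher in controls). With 1 library left out the ranges were 6995 to 13966 higher, 2117 to 5750 lower, 3124 to 11106 and 1616 to 4482 in controls, 21.001% to 70.9% and 19.7% to 39.6% shared with controls, and 0 to 21 interaction calls, against 35 by DESeq2. The cause was not tested, except that fewer peaks or libraries entered some fits.

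The replicate block gave 5040 and 1711. Deviations of same-numbered lung and spleen libraries from their group means correlated at r = -0.01 and 0.04. With 2 lung libraries these deviations mirror each other, so they cannot show whether the numbers pair the libraries. The block ended the calls at Tbx21, Isg15, Hif1a, Ldha, Cdk6, Lrrc32, Nfkbiz, Fos, Atf3, Ambra1 and the narrow Pik3c3 peak.

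Reversals were seen only at peaks whose difference was not called, and at Fgfr2, which was called. With GC offsets Klrg1 was at -0.42 and the narrow Fgfr2 peak at -0.16. Tcf7 was at -0.0376 with library size, -0.038 with no filter, -0.0027 with the chromosome Y covariate, -0.0318 on autosomes, -0.12 on thinned counts, and -0.24 to 0.32 with 1 library left out. Ccr7 (strongest peak) was at 0.11 with the replicate block and -2.43 to 0.13 with 1 library left out, Foxp3 at -0.26 to 0.0289, and Pik3c3 at -0.18 to 0.0313 and, among wide peaks, 0.0016. Of 90 called named peaks, 22 lost their call in at least 1 alternative. Low depth limits peaks near 1 CPM, where lung replicate 2 holds fewer than 10 counts.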

Other observations

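Some peaks were very strong in a single library. In lung Vps34-deficient replicate 1, 48 peaks above 10 CPM were more than 5 times as high as in the other lung library, and 21 of these were also called. The corresponding number was 3 in lung replicate 2 and 0, 3, 0 and 1 in spleen replicates 1 to 4.

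Close to the alpha-globin genes, whose distant enhancers lie within Nprl3, peaks with Nprl3 or Mpg as nearest gene were looked at after their values were seen. At a peak in an intron of Nprl3 with the start of Mpg as nearest (chr11:32245604-32246008) the lung libraries had at most 2 counts, or 0.166 and 0.214 CPM, and the spleen libraries 3.59, 3.15, 3.60 and 4.11 CPM. Of 3 peaks nearest to Nprl3, 2 were lower in Vps34-deficient lung and 2 in control lung, and of 3 nearest to Mpg 1 and 1. These peaks are few and were picked by their values.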
